A study of Mus musculus with 22 samples.

Results

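The sites described here are the regions where the transcription factor C/EBP beta (gene Cebpb) was called both after the vasopressin analog dDAVP and after vehicle, in a mouse kidney cell line. They were chosen by the called positions themselves, as the peaks of the C/EBP beta dDAVP list that overlapped a peak of the vehicle list by at least 1 bp. This gave 209 of 2401 dDAVP peaks, or 8.70%, and the other 2192 dDAVP peaks had no vehicle peak. The vehicle list held 209 peaks and all of them, 100%, overlapped a dDAVP peak, so the sites are the whole vehicle list. Chromatin immunoprecipitation with sequencing (ChIP-seq) was done in mpkCCD cells, clone 11, a line of cultured cortical collecting duct cells, so all samples are of 1 clone. Confluent cells on permeable supports, kept without serum and hormones beforehand, received 0.1 nM dDAVP or its vehicle for 30 min, and 2 samples per treatment were precipitated with the C/EBP beta antibody. CREB1 was precipitated from 4 samples per treatment, and input samples without antibody made up the rest of the 22. By its title, 1 input per treatment belongs to both a CREB1 and a C/EBP beta experiment, so the 2 antibodies are not fully separate data. The deposited peak lists are 1 per antibody and treatment, so the values below have no replicate error, and the read depth behind them is unknown. These lists hold positions and scores and no expression, so markers of collecting duct cells could not be read from them.

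C/EBP beta is a basic leucine zipper factor that binds DNA as a dimer, at a palindrome built from paired TTGC and GCAA arms. It also pairs with factors of the ATF family such as ATF4, and such dimers read a composite element, TGATGCAA, in genes of the amino acid stress response. In many tissues the factor is known for acute phase, metabolic and stress genes. Vasopressin, through the V2 receptor, raises cAMP in collecting duct cells and is best known for its action on the water channel gene Aqp2.

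Sequence over the sites came from RefSeq promoter windows of build GRCm38.p6 (mm10), which run from 250 bases before to 50 bases after an annotated start. Of the 209 sites, 38 overlapped at least 1 of the windows searched, which gave 45 windows of 40 genes. The windows below are shown because they carry the best dDAVP scores among those with a C/EBP letter pattern, and the capitals mark that pattern, TTGCNNAA read on either strand. Abhd11 encodes a mitochondrial hydrolase (chr5:135008902-135009201, plus strand), Rpia the isomerase that makes ribose phosphate in the pentose phosphate pathway (chr6:70792126-70792425, minus strand), and Aacs the enzyme that activates acetoacetate for lipid synthesis (chr5:125475623-125475922, plus strand).
Abhd11: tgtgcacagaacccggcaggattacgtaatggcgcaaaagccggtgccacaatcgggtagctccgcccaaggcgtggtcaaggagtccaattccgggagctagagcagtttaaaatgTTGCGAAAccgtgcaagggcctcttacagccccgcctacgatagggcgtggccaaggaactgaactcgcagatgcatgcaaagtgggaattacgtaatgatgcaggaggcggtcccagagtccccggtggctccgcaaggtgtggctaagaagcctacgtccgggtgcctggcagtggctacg
Rpia: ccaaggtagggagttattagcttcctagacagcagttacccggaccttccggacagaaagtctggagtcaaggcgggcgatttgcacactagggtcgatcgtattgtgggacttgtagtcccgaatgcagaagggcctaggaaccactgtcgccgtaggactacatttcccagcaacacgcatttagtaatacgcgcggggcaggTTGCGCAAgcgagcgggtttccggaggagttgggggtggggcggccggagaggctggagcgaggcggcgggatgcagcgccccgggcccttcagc
Aacs: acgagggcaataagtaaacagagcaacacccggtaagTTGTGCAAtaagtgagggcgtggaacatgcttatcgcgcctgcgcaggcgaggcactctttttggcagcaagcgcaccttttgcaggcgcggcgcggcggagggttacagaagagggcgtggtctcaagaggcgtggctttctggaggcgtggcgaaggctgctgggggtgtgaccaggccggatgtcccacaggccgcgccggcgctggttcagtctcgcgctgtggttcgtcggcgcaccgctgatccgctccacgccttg

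The closed palindrome TTGCGCAA, the symmetric form of the pattern in which both arms are complete, was found at 11 places under the shared sites. The 11 stretches of 30 bases are shown 5′ to 3′ on the strand of the gene so that the bases on either side can be compared; capitals mark the palindrome.
Rpia: cgcggggcaggTTGCGCAAgcgagcgggtt
Mpc2: ggccgttaagcTTGCGCAAcgcctcgcccg
Man1b1: gggttctgagcTTGCGCAAcgaccgataag
Smad6: tgaaaccttgtTTGCGCAAcaatcagcgcc
Pnp: ttatttcaagaTTGCGCAAtctatgaaaaa
Ccdc77: gcattctgtctTTGCGCAAtgctgtgtgca
Cep295: ataatggcccgTTGCGCAAgctgcgcgtgc
Abcc5: tcccttcggtcTTGCGCAAgctttgtgcat
Fam110a: ggccccggaagTTGCGCAAaagccggctac
Clec12a: gtaggagcaaaTTGCGCAActcgtatgaag
Spty2d1: gaaagcggaagTTGCGCAAatacttgcgag
These genes have no single role. Rpia and Pnp, a purine nucleoside phosphorylase, act in nucleotide metabolism, Mpc2 is a subunit of the mitochondrial pyruvate carrier and Man1b1 an endoplasmic reticulum mannosidase. Smad6 encodes an inhibitory SMAD, Cep295 a centriole protein, Abcc5 an exporter of organic anions and Clec12a a lectin receptor of myeloid cells. The stretch at Man1b1 lay at chr2:25332693-25332722 on the plus strand, and the first base of the palindrome was 39 bases before the start. At Pnp the stretch lay at chr14:50944160-50944189, and the first base of the palindrome was 132 bases before the start. All 11 palindromes lay inside the vehicle peak as well as inside the dDAVP peak. Their distance from the vehicle peak centre was 3 to 58 bp with a median of 17 bp, and 10 of 11 lay within 50 bp.

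The composite element TGATGCAA was found at 5 places under the shared sites. The stretches below show 4 of them, again on the strand of the gene, where the element reads as its reverse complement TTGCATCA.
Got1: cattgcattggTTGCATCAtacaagcctcc
Iars: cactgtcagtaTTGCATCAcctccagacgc
Chac1: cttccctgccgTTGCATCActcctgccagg
Herpud1: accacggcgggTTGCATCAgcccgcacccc
In all 5 promoters the element had this same orientation relative to the gene. Got1 encodes the cytosolic aspartate aminotransferase, Iars the isoleucyl-tRNA synthetase, Chac1 a glutathione-degrading enzyme, and Herpud1 a protein of endoplasmic reticulum degradation. The stretch at Chac1 lay at chr2:119351038-119351067 with the first base of the element 193 bases before the start. At Herpud1 (chr8:94386306-94386335) the first base lay 112 bases before the start. At Iars it was past the start, at position 7, counted from the first base of the gene as 0. All 5 elements lay within the vehicle peak, 0 to 13 bp from its centre. A match is a run of letters and no measure of binding by a given dimer.

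Set beside other promoters, matches to the C/EBP patterns stood under many shared sites. TTGCNNAA was in 28 of 45 windows over a shared site (62.2%), in 100 of 306 windows over a peak of the dDAVP list alone (32.7%) and in 10.9% of all 32619 windows. TTGCGCAA, a case of that pattern, was in 15 of 45 (33.3%), in 11 of 306 (3.59%) and in 0.184% of all windows. For TGATGCAA, which cannot coincide with TTGCNNAA at the same bases, the counts were 5 of 45 (11.1%), 13 of 306 (4.25%) and 0.880% of all. At least 1 of TTGCNNAA and TGATGCAA was in 33 of 45, or 73.3%. Some windows overlap each other, such as 3 at Ccdc77, so the 45 are fewer than 45 separate sequences. The full CRE palindrome TGACGTCA, the classical CREB element, was in 0 of 45, in 2.94% of windows over dDAVP-only peaks and in 1.80% of all. With shares this low, 0 of 45 windows is not read as a lack of the element at shared sites. The AP-1 pattern TGANTCA was in 4 of 45 (8.89%), near the 7.85% of all windows.

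**Figure D1:**
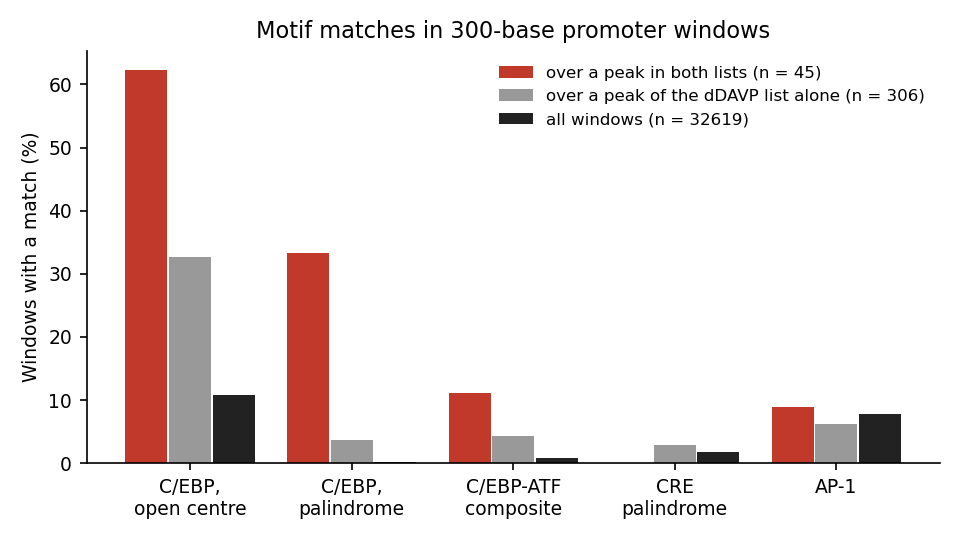
Share of RefSeq promoter windows (y axis, percent) that hold a match on either strand, for 5 letter patterns (x axis), by window set: windows over a shared site (left bars, n = 45), windows over a dDAVP-only peak (middle, n = 306) and all windows (right, n = 32619). The C/EBP palindrome is in 33.3% of windows over shared sites and in 0.184% of all windows.

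Peak width was then held fixed, by reading the bases within 50 bp of the dDAVP peak centre where a window covered them. TTGCNNAA stood there in 16 of 25 shared sites (64.0%) and in 58 of 152 dDAVP-only peaks (38.2%), against 4.03% of stretches of the same length in the middle of all windows. TTGCGCAA stood in 7 of 25 shared sites (28.0%), in 8 of 152 dDAVP-only peaks (5.26%) and in 0.0766% of all windows. The dDAVP score moves with being shared, so the same was read among peaks in the upper 25% of dDAVP scores. TTGCNNAA was then in 15 of 24 shared sites (62.5%) and in 20 of 38 dDAVP-only peaks (52.6%), and TTGCGCAA in 6 of 24 shared sites and in 2 of 38 dDAVP-only peaks. This cut kept 24 of the 25 shared sites, and scores were not matched within it, so a part of the score in these shares remains possible. These shares are descriptions with no test, and they cover promoter sequence alone.

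The score deposited with each C/EBP beta peak is the authors' own value on a scale that is not stated, and it was used to rank peaks within a list. Being shared followed the dDAVP score closely. The shared sites had dDAVP scores of 273 to 3880 with a median of 1104, while dDAVP-only peaks had 30 to 2573 with a median of 179. In the vehicle list the same sites scored 42 to 806, with a median of 131. Of the 100 best dDAVP ranks, 90 were shared, and of the 20 best, 19. The exception among the 20 best lay 126857 bp from Trib1. It carried the same replicate 1 peak number and score, 2573, as a shared site next to it. When the list was cut into 10 bins of equal size by score, the highest bin held 167 of the 209 sites, and the lowest 6 bins held 0. These values chose or accompany the choice of the sites and are given as a description.

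**Figure D2:**
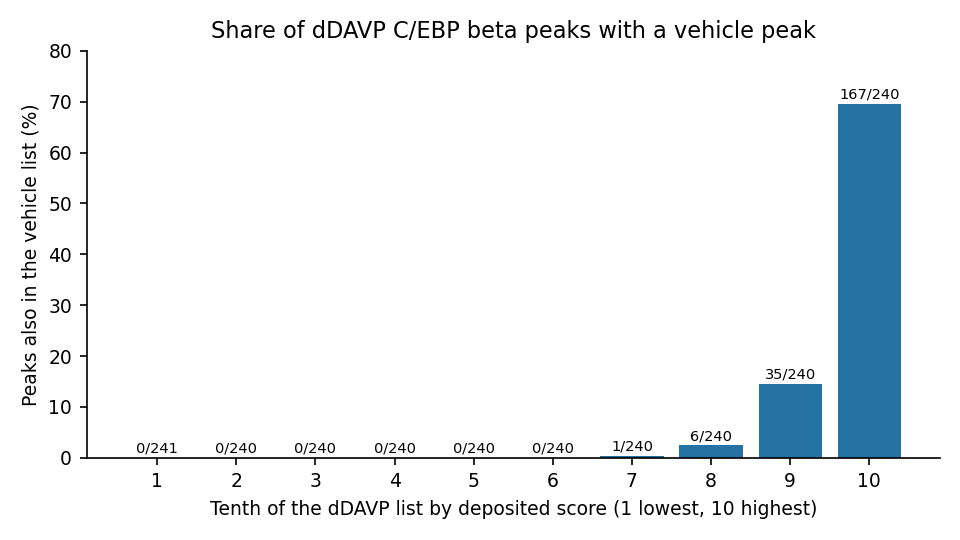
Share of dDAVP C/EBP beta peaks that overlapped a vehicle peak (y axis, percent) in each of 10 equal bins of the dDAVP list by deposited score (x axis, lowest to highest), with counts above the bars. It is 69.6% in the highest bin, 14.6% in the next and 0 in the lowest 6.

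The order of the sites was partly kept between the lists, with a Spearman correlation of 0.67 between dDAVP and vehicle scores over 209 sites. The sites share their libraries within each list, and the depth behind either list is unknown. The best site of both lists lay inside Cdkl4, a kinase gene, and scored 3880 after dDAVP and 806 after vehicle. In all, 4 sites were among the 10 best of both lists: those at Cdkl4, near Rcn1, at Cotl1 and at Abhd11. Cotl1 encodes an actin-binding protein, and its site on chromosome 8 from 119840422 to 119840913 scored 3259 after dDAVP and 456 after vehicle. The site inside Btbd19 scored 2914 after dDAVP and 264 after vehicle. A site inside Rarg, the retinoic acid receptor gamma gene, scored 2788 after dDAVP and 307 after vehicle.

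Other sites were among the 10 best of the vehicle list. The site inside Ptpn12, a tyrosine phosphatase gene, scored 2473 after dDAVP and 776 after vehicle. On chromosome 17 a site 22462 bp from Dynlt1b scored 2416 after dDAVP and 711 after vehicle, and a site inside Sytl3 scored 1972 after dDAVP and 689 after vehicle. Between them, and just below the 10 best, a site inside Gm29721 scored 1770 after dDAVP and 421 after vehicle. These 3 sites lie between 6406804 and 6678601 around the Dynlt1 gene copies, where reads of near-identical copies may not be told apart, so their scores are uncertain.

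The ratio of vehicle to dDAVP score ran from 0.0348 to 0.410 over the sites, with a median of 0.134, and it orders sites without placing the lists on a common scale. It was highest near Mat2b (510 after dDAVP and 209 after vehicle), inside Nln (273 after dDAVP and 107 after vehicle) and near Pde7a (577 after dDAVP and 207 after vehicle). Next came sites near Cyria (612 after dDAVP and 215 after vehicle) and inside Sytl3 (1972 after dDAVP and 689 after vehicle). It was lowest at Ankrd22 (1840 after dDAVP and 64 after vehicle), inside Cd47, which encodes a surface signal against phagocytosis (1304 after dDAVP and 47 after vehicle) and at Man1b1 (1474 after dDAVP and 73 after vehicle). Then came sites inside Slc22a23 (1234 after dDAVP and 62 after vehicle) and at Knl1, a kinetochore gene (1191 after dDAVP and 62 after vehicle). Of the 5 sites with the lowest ratio, 3 were within 1000 bp of a gene start, and of the 5 with the highest ratio, 0. Over all 209 shared sites this share was 26.3%, and with 5 sites at each end no link of ratio to position is drawn. Over all sites at gene starts the median ratio was 0.133, and inside genes it was 0.130. Between genes it was 0.141 within 50000 bp of a start and 0.124 farther away.

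**Figure D3:**
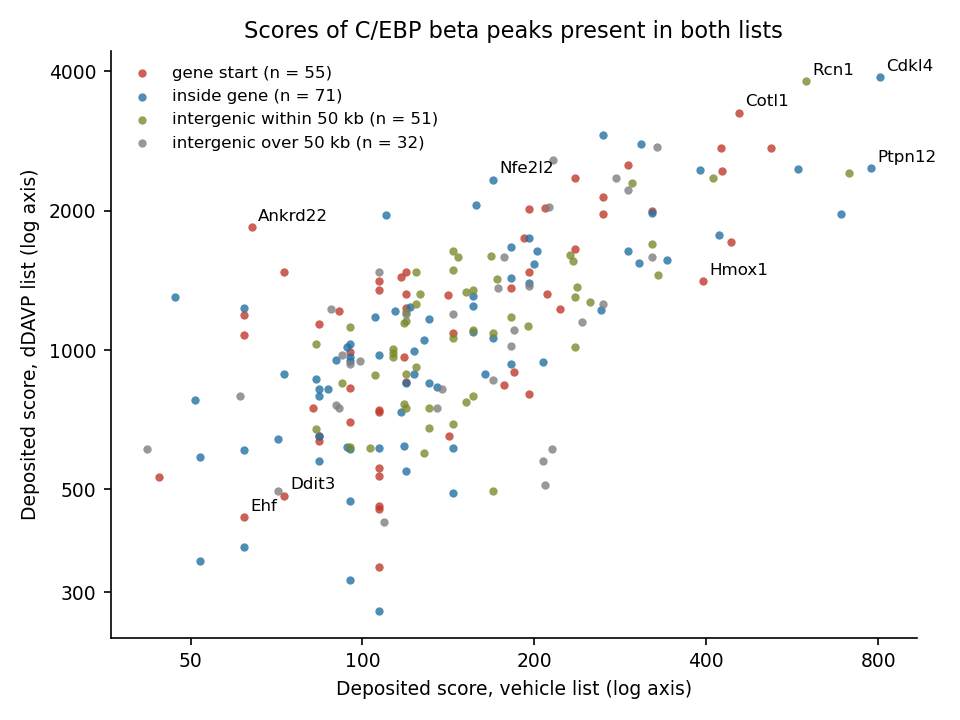
Deposited score of each shared site in the dDAVP list (y axis, log scale) against its score in the vehicle list (x axis, log scale), 1 point per site, coloured by position relative to genes. Cdkl4 is highest in both, and Ankrd22 combines 1840 after dDAVP with 64 after vehicle.

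At every shared site the vehicle peak lay wholly inside the dDAVP peak, in 209 of 209, with a single vehicle peak per site. The dDAVP peaks at these sites were 272 to 703 bp wide, with a median of 398 bp, and the vehicle peaks 125 to 446 bp, with a median of 226 bp. The dDAVP peak reached beyond the vehicle peak by a median of 82 bp on the side of lower coordinates and 83 bp on the other. The 2 centres were 0 to 194 bp apart with a median of 15 bp, and within 50 bp of each other at 200 sites. At Rbm39, a splicing factor gene, they coincided. The largest shift, 194 bp, was at a site of 694 bp far from genes, 140841 bp from Tbl1xr1. Wide peaks went with high scores (Spearman correlation 0.61 between dDAVP score and width), so width is no independent measure.

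**Figure D4:**
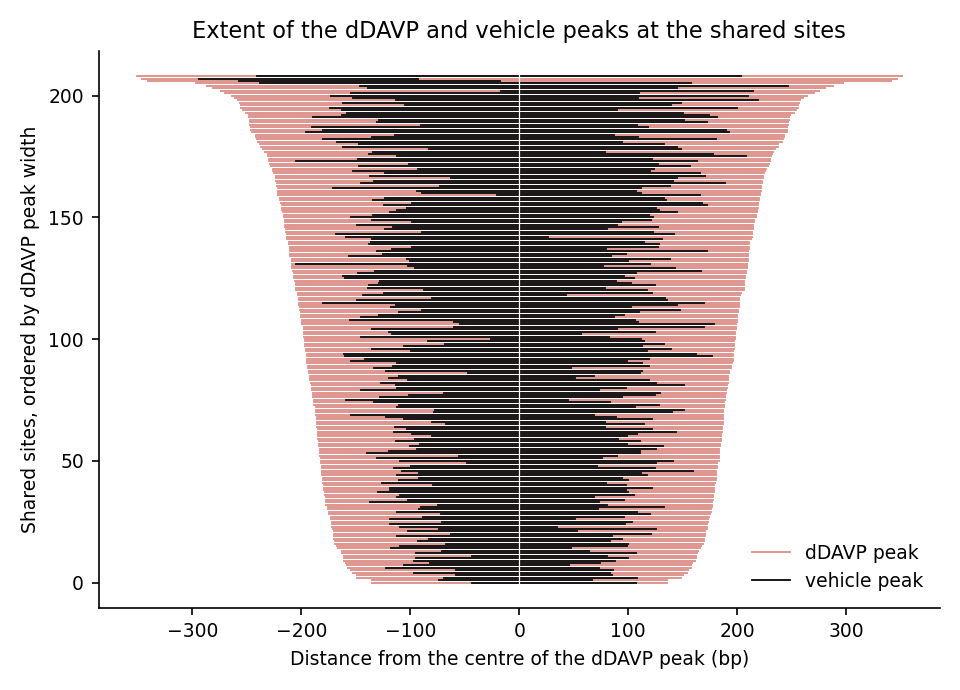
Extent of the dDAVP peak (light lines) and of the vehicle peak (dark lines) at the 209 shared sites, in bp from the dDAVP peak centre (x axis), ordered by dDAVP peak width (y axis, 1 row per site). Each vehicle peak lies inside its dDAVP peak.

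No site stood close to the 1 bp limit of the overlap. Because every vehicle peak lay inside its dDAVP peak, the overlap was simply the width of the vehicle peak. The smallest overlaps were 125 bp at Lrrc75b, 136 bp at Nnt and 139 bp near Tgm2. Just outside the limit, the nearest dDAVP-only regions were 198 bp from a vehicle peak, 126857 bp from Trib1, then 278 bp away inside Eml4 and 301 bp away near Klrb1b. The Trib1 region carries the same replicate 1 peak number and the same score, 2573, as a shared site next to it. With an overlap of at least 50% of both peaks, 157 sites remained.

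Positions relative to genes were taken from the annotated start of a protein-coding gene, or from either end for the 4357 of 21631 genes with no strand given. Of the 209 sites, 55 were within 1000 bp of such a point (26.3%), 71 inside a gene away from its start (34.0%), 51 between genes within 50000 bp of a start (24.4%) and 32 farther away (15.3%). In all dDAVP peaks 20.4% were at a gene start. Of the 40 sites at a start with known strand, 32 were centred upstream and 8 downstream of it. This split was not counted for dDAVP-only peaks, so it is not read as particular to the shared sites.

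The highest dDAVP scores at gene starts were at Cotl1, Rbm39, Abhd11, Mideas and Rpia. Rad23b, of nucleotide excision repair, was centred 264 bp upstream, with 2352 after dDAVP and 236 after vehicle. Hmox1, heme oxygenase, scored 1408 after dDAVP and 395 after vehicle. Mcm3, a subunit of the replicative helicase, scored 1650 after dDAVP and 236 after vehicle, 152 bp upstream. Trib1, which encodes a pseudokinase that marks C/EBP proteins for degradation, scored 1714 after dDAVP and 441 after vehicle. Its strand was not given, and the site lay 84 bp from the lower-coordinate end of the gene. The lowest dDAVP scores at gene starts were at Spty2d1 (340 after dDAVP and 107 after vehicle) and Ehf (435 after dDAVP and 62 after vehicle). Among the centres closest to a start were those of Hjurp at 2 bp, of Dhrs9 and Fam110a at 6 bp and of Smad6 at 9 bp.

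Sites inside genes included several regulators. Nfe2l2, which encodes the oxidative stress factor NRF2, had a site 1230 bp past its start with 2334 after dDAVP and 169 after vehicle. Cpt1a, the carnitine transferase of mitochondrial fatty acid import, had 2 sites within 1198 bp on chromosome 19, from 3333256 to 3334453. They scored 2444 and 1962 after dDAVP, and 390 and 110 after vehicle in the same order. Fosl2, an AP-1 member, had a site 3116 bp past its start (1666 after dDAVP and 182 after vehicle). Foxo1 (952 after dDAVP and 90 after vehicle), Rxra (1747 after dDAVP and 196 after vehicle), Kcnq1 (887 after dDAVP and 73 after vehicle) and Cftr, the chloride channel gene (318 after dDAVP and 95 after vehicle), also held a site.

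Of the sites over 1000 bp from a coding start, 11 lay within 1000 bp of an end of a noncoding gene, a look added after the values were seen. This was not counted for dDAVP-only peaks, so it is not read as particular to the shared sites. The site nearest to Frmd8 overlapped the higher-coordinate end of Neat1, a nuclear long noncoding RNA, on chromosome 19 from 5845449 to 5845853. It scored 1449 after dDAVP and 329 after vehicle. A site listed with Tmem30b, with 2740 after dDAVP and 328 after vehicle, was 457 bp from an end of Gm33929.

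Most shared sites had no other shared site close by, though no other peak set of this size was grouped for comparison. With all dDAVP peaks counted, 70 of 209 shared sites (33.5%) and 27.7% of dDAVP-only peaks had another within 50000 bp. When shared sites alone were joined within 50000 bp of each other, 194 stayed single and 15 fell into 7 groups. Of these groups, 1 had 3 sites. That group spanned 40205 bp on chromosome 3 between Pde7a and Dnajc5b, with scores of 577, 426 and 751 after dDAVP, and 207, 109 and 91 after vehicle. Pairs stood in Cpt1a, at Chmp4b, near Klrb1b and near Anxa2. Myc, the growth factor-induced transcription factor, was the nearest coding gene of 4 sites. The nearest lay 1724 bp below its lower-coordinate end and scored 1088 after dDAVP and 169 after vehicle. The others lay 27463, 465844 and 510816 bp beyond its higher-coordinate end and scored 851, 1104 and 1591 after dDAVP, and 92, 184 and 177 after vehicle. By distance to a coding start, or to either end where no strand was given, the farthest site lay 582646 bp from Prkd1. It was 274623 bp from the nearer end of Prkd1 and 56608 bp from the start of Gm40419. This site scored 974 after dDAVP and 92 after vehicle. Neither Aqp2 nor Cebpb had a shared site within 50000 bp; the dDAVP-only peak nearest to Aqp2 scored 227.

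Gene lists for stress and collecting duct functions were then read against the sites. In all, 95 of 21631 protein-coding genes had a start within 5000 bp of a shared site, or 0.439%, and 4.31% had one within 5000 bp of any dDAVP peak. Of 36 genes of the amino acid response, 5 were near a shared site (13.9%) and 23 near any dDAVP peak (63.9%). These 5 were Iars (14 bp), Aars (108 bp), Chac1 (194 bp), Ddit3 (291 bp), which encodes the C/EBP family member CHOP, and Sars (1052 bp), the seryl-tRNA synthetase. Sars scored 2059 after dDAVP and 158 after vehicle, and the others 485 to 1138 after dDAVP and 73 to 118 after vehicle.

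The other lists had 1 or 2 genes near a shared site. Of 31 genes of the C/EBP family and acute phase, 2 were near one, Trib1 and Ddit3, against 9 near any dDAVP peak. Of 24 genes of heme and oxidative stress, 2 were Hmox1 and Nfe2l2, against 4 near any. Myc and Fosl2 were 2 of 32 immediate early genes, against 8 near any dDAVP peak. Herpud1 was 1 of 27 genes of protein folding, with 699 after dDAVP and 95 after vehicle, against 5 near any. Ehf, an epithelial ETS factor, was 1 of 32 collecting duct genes, against 6 near any. For Kcnj1, the renal potassium channel, the site lay 2712 bp from the nearer end of the gene and 24279 bp before the listed start, and it scored 1423 after dDAVP and 172 after vehicle. With so few genes per list, nothing particular to a list is drawn from these counts.

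Overlap of the sites with CREB1, the cAMP-responsive factor, was near the share over all C/EBP beta dDAVP peaks. A CREB1 peak of either treatment overlapped 5 of 209 shared sites (2.39%, 95% Wilson interval 1.03 to 5.48), where 2.08% of all dDAVP peaks had one. Among the 5 were the sites at Man1b1, at the Neat1 end and at Spty2d1, a histone chaperone gene. All 5 overlapped a CREB1 peak of the vehicle list, and Man1b1 also one of the dDAVP list. The CREB1 lists held 785 peaks for vehicle and 406 for dDAVP. The share over all C/EBP beta dDAVP peaks was counted for both CREB1 lists together, so no difference between treatments is read from this. At Man1b1 and Spty2d1 the C/EBP palindrome was under the same peak.

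Shared sites were finally compared with the 2192 dDAVP-only peaks in 4 measures that the choice did not use, using two-sided Fisher's exact tests. Their p-values were adjusted over the 4 measures after Benjamini and Hochberg. None passed an adjusted p of 0.05, and 1 passed an unadjusted p of 0.05. At gene starts the shares were 26.3% for shared sites (20.8 to 32.7) and 19.8% for dDAVP-only peaks (18.2 to 21.6), an odds ratio of 1.44 (1.02 to 2.01; exact p = 0.0309, adjusted p = 0.124). Within 500 bp of a start, where Abhd11, Iars and Hmox1 stand, the shares were 24.9% for shared sites and 14.3% for dDAVP-only peaks (odds ratio 1.98), which passed with an adjusted exact p of 0.000668, where all settings tried ranged between 0.000668 and 0.705. In the upper 50% of dDAVP scores the difference at 500 bp was 8.35 percentage points and passed (adjusted exact p = 0.0219). That cut, at a score of 197, lay below the lowest dDAVP score of a shared site, 273. All 209 shared sites therefore stayed in, only dDAVP-only peaks were left out, and the 2 sets were not matched in score. In the upper 25% the shares at 500 bp were 24.9% for shared sites and 19.5% for dDAVP-only peaks, and the difference did not pass (adjusted exact p = 0.285). Both of these combinations were chosen after the data were seen, and the part of the score in the difference was not tested further.

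Inside genes the shares were 34.0% for shared sites and 39.0% for dDAVP-only peaks (odds ratio 0.806, 0.589 to 1.10; adjusted exact p = 0.241). A CREB1 peak overlapped 2.39% of shared sites and 2.05% of dDAVP-only peaks (odds ratio 1.17, 0.358 to 2.98; adjusted exact p = 0.618). Another dDAVP peak within 10000 bp was found for 27 of 209 shared sites (12.9%) and 202 of 2192 dDAVP-only peaks (9.22%), an odds ratio of 1.46 (0.914 to 2.26; adjusted exact p = 0.170). The p-values treat peaks as units within a list and say nothing of the spread between cultures. The intervals are at 95% and cover the counting of peaks alone.

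**Figure D5:**
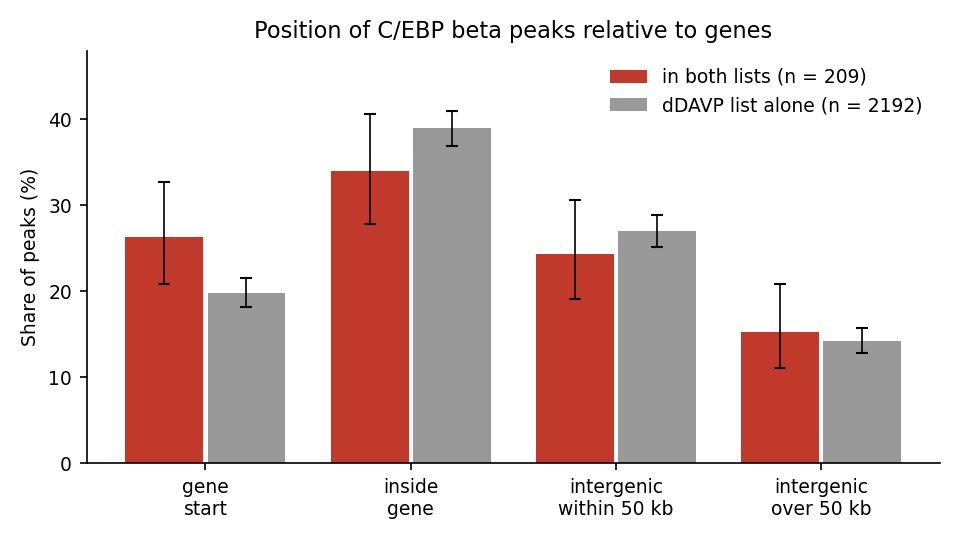
Share of peaks (y axis, percent) in 4 position classes (x axis) for C/EBP beta peaks in both lists (left bars, n = 209) and in the dDAVP list alone (right bars, n = 2192), with 95% Wilson intervals. Gene starts hold 26.3% of shared sites and 19.8% of dDAVP-only peaks.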

How the data were processed

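ChIP-seq for C/EBP beta and CREB1 was deposited as 4 peak lists, 1 per antibody and treatment, and how replicates were combined is not given in the sources used here. BWA, SAMtools, MACS2, bedtools and build mm10 are named in the submitters' processing notes, without roles or versions. C/EBP beta peaks carry names of replicate 1 peaks, so their deposited score was taken as that of replicate 1. The scale of this score is not stated. Deposited peak names read as a bandwidth of 300, a duplicate setting of 1 and a q-value limit of 0.01, with peak numbers up to 2707 for dDAVP and 329 for vehicle. Positions are in mm10, counted from 1.

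Overlaps, distances from peak centres and motif matches were computed in Python 3.11.15 with pandas 2.3.3. Tests used scipy 1.17.1 and statsmodels 0.14.6. Overlap and distance code was tested on simulated peaks. Promoter windows on chromosomes 18 and Y were not used. Genes, starts and promoter windows came from RefSeq tables of GRCm38.p6, with a strand for 17274 of 21631 protein-coding genes. No genome sequence was used, so the planned motif test over all peaks was replaced by a description over promoter windows. All 182 entries of 6 gene lists were found in the table.

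Named genes were the nearest genes of the 10 best sites by each score, of the 5 highest and 5 lowest score ratios, of sites nearest to starts, of sites with a CREB1 peak, of list genes within 5000 bp, of groups of sites and of sites farthest from genes. Others were chosen after their values were seen, as were the sequence stretches of 30 bases and the window of 50 bp around peak centres. The sites and lists were chosen with earlier results of these data known. Alternatives covered the overlap, the gene start window, the score threshold, short peaks and the distances to CREB1 and neighbouring peaks. Some named items and 1 sequence are not reported here.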

Additional observations from a re-analysis of the deposited data

How the results depend on the processing

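Differences are in percentage points, shared minus dDAVP-only peaks, with Fisher's exact test and adjustment over 4 comparisons. At gene starts (6.47 points) the difference passed at 500 bp (10.6) and at 500 bp in the upper 50% of scores (8.35, adjusted exact p = 0.0219). It missed the threshold at 5000 bp (4.95), with 50% overlap (6.79), in the upper 50% and 25% of scores (4.74 and 3.28), with both ends of every gene (3.97) and with genes of known strand (3.10). The upper 50% of scores left out no shared site. The upper 25% of scores, both ends, known strand and the combinations with 500 bp were chosen after the data were seen. The overlap with CREB1 (0.339 points) turned round in the upper 25% of scores (-0.555) and with CREB1 within 1000 bp (-0.710), far from the threshold each time. Positions inside genes and neighbouring peaks kept their direction in the alternatives run for them, without passing. Genes near a shared site numbered 95 at 5000 bp, 59 at 1000 bp and 360 at 50000 bp. The share of promoter windows with a C/EBP pattern was 62.2% for TTGCNNAA and 33.3% for TTGCGCAA. No paired analysis was possible because each treatment has 1 list with no replicate columns, so no replicate could be left out either.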
